A study of Mus musculus with 15 samples.

Results

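MicroRNAs made by the cluster of miR-143 and miR-145a and by that of miR-199a and miR-214, which mark stellate, smooth muscle and other mesenchymal cells, were followed through small RNA libraries of mouse pancreatic acini. The 7 mature miRNAs, chosen by name, were mmu-miR-143-3p, mmu-miR-145a-5p, mmu-miR-145a-3p, mmu-miR-199a-5p, mmu-miR-199a-3p, mmu-miR-214-3p and mmu-miR-214-5p, written below without the prefix for mouse. They are 7 of the 1915 mature miRNAs in the deposited table, and 7 of 7 passed the low-count filter that 351 miRNAs passed. The libraries came from pancreatic acini of C57BL/6 mice aged 7 to 8 weeks, in 5 groups of 3. Acini were given caerulein at 100 nM, caerulein at 100 pM, TLC-S at 250 uM, TLC-S at 62.5 uM, or no drug (control). Caerulein is a peptide that acts on cholecystokinin receptors, and the series calls 100 nM a pathological and 100 pM a physiological dose. TLC-S is a bile acid derivative that injures acinar cells. How long the acini were exposed is not given in the labels. The labels describe RNA pooled from independent preparations of acini, so p-values measure the spread between libraries, which may be technical. In bulk libraries such as these, fewer cells of a type and less RNA per cell cannot be told apart.

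MicroRNAs are short RNAs that lower the output of messenger RNAs whose untranslated regions pair with the seed, the stretch near the 5′ end. A hairpin precursor yields a 5p and a 3p arm, and usually one of them is kept in far larger amounts. The cluster of miR-143 and miR-145a is transcribed as one unit in smooth muscle cells, pericytes and fibroblasts, under serum response factor and myocardin, and it supports the contractile state of smooth muscle. miR-199a and miR-214 are cut from the long noncoding RNA Dnm3os, which is expressed in mesenchyme. In the pancreas these cells include the stellate cells, fibroblast-like cells around the acini that lay down matrix when activated by injury. Acinar cells themselves are known for miR-216, miR-217 and miR-148a.

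The mature sequences are shown because 2 differently named products share one sequence. They are from RefSeq on GRCm38.p6, in which 4 of the 7 miRNAs had an entry that is printed here, with the seed (bases 2 to 8) in capitals.
miR-199a-5p: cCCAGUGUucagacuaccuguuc
miR-199a-3p: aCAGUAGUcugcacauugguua
miR-199b-3p: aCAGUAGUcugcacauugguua
miR-214-3p: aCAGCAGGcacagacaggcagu
miR-214-5p: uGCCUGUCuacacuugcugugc
The mature 3p sequence of miR-199a and that of miR-199b were identical, and 3 hairpins carry it. By seed, miR-199a-3p and miR-199b-3p form one group, and miR-214-5p shared its seed with no other mature entry of the RefSeq table. The seed letters of miR-199a-5p also occur 1 time in the Mir199b hairpin, in its 5p side. The seed of miR-214-3p is also that of miR-761, which had 0 counts in the 15 libraries.

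The hairpins are shown to place these arms, with the mature arms that RefSeq gives in capitals.
Mir199a-1: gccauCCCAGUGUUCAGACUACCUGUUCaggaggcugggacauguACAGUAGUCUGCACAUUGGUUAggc
Mir199a-2: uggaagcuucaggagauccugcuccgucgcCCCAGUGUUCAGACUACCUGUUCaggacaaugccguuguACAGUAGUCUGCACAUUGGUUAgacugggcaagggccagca
Mir199b: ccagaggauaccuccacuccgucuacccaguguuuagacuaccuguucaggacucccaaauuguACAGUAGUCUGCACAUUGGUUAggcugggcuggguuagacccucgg
Mir214: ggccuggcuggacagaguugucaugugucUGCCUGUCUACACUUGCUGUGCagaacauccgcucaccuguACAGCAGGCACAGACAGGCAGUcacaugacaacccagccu
In GRCm38, Mir199a-2 lies on the plus strand at chr1:162217814-162217923 and Mir214 on the same strand at chr1:162223368-162223477, 5444 bases further on. Both are in exons of Dnm3os and opposite an intron of Dnm3, a dynamin gene. Mir199a-1 is on the minus strand at chr9:21496495-21496564, opposite an intron of Dnm2, and Mir199b on the plus strand at chr2:32318460-32318569, opposite an intron of Dnm1. The 3 miR-199 hairpins thus each lie opposite a different dynamin gene.

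Library totals ran from 535473 to 5087728 counts, both in the caerulein 100 nM group, and 3 counts, the limit taken for a count of 0, correspond to 0.59 to 5.6 CPM, the unit that relates a count to the library total. Levels below are CPM after TMM scaling, with errors as SD. Of the acinar markers, miR-148a-3p averaged 294995 ± 153000 CPM and miR-217-5p 89283 ± 26100 CPM (n = 15 each). The acinar miR-216a-5p at 10437 ± 1740 CPM and miR-216b-5p at 7804 ± 1470 CPM lay below miR-143-3p at 11208 CPM. miR-375-3p, listed as an islet marker, averaged 99986 ± 16000 CPM, above miR-217-5p. The 7 mesenchymal miRNAs together made up 0.867% to 1.98% of the counts of a library. They were thus measured in every library as a small part of an acinar preparation. Their summed level was 11193 ± 3000 CPM with caerulein 100 nM, 12846 ± 2960 CPM with caerulein 100 pM, 12981 ± 4730 CPM with TLC-S 250 uM, 13462 ± 2050 CPM with TLC-S 62.5 uM and 12342 ± 374 CPM in control (n = 3 each). miR-143-3p alone held 88.9% ± 1.75 of that sum, so the sum is close to a reading of miR-143-3p.

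miR-143-3p, the main product of the miR-143 hairpin, ranked 18 among the 351 miRNAs tested, at 11208 ± 2530 CPM over the 15 libraries. Mir143 and Mir145a lie on the minus strand of chromosome 18 with 1301 bases between them, and no other annotated gene overlapped either. It stood at 7692, 9054 and 13222 CPM with caerulein 100 nM, and at 8341, 12925 and 13620 CPM with caerulein 100 pM. With TLC-S 250 uM it was 6794, 15879 and 12080 CPM, with TLC-S 62.5 uM 9701, 13001 and 13042 CPM, and in control 10606, 11114 and 11055 CPM. Both the lowest and the highest of the 15 libraries belonged to TLC-S 250 uM, and every treated group overlapped control. The 3 control libraries lay close together on the TMM scale. In 5 of 5 groups the lowest library was the one numbered replicate 1. The log2 difference from control was -0.13 with caerulein 100 nM (95% interval -0.69 to 0.44), 0.09 with caerulein 100 pM (-0.47 to 0.65), 0.08 with TLC-S 250 uM (-0.48 to 0.65) and 0.13 with TLC-S 62.5 uM (-0.44 to 0.69), with an SE of 0.27 each.

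miR-145a-5p, the guide arm of the neighbouring hairpin and a regulator of the contractile phenotype of smooth muscle, was much scarcer at 415 ± 86.8 CPM (n = 15). It was at 402, 390 and 380 CPM with caerulein 100 nM, 316, 348 and 318 CPM with caerulein 100 pM, 510, 582 and 372 CPM with TLC-S 250 uM, 354, 456 and 551 CPM with TLC-S 62.5 uM, and 424, 501 and 316 CPM in control. The caerulein groups were the tightest, and caerulein 100 nM lay wholly above caerulein 100 pM (groups failed to overlap for 5.70% of all miRNAs there), whereas every treated group overlapped control. That difference between the caerulein doses was 0.26 on the log2 scale (SE 0.25, 95% interval -0.26 to 0.77) and did not pass the test (adjusted p = 0.986, edgeR). Against control, caerulein 100 pM differed by -0.34 (SE 0.25, 95% interval -0.85 to 0.18, adjusted p = 0.942, edgeR), the other 3 groups by -0.08 to 0.24. The opposite arm, miR-145a-3p, averaged 115 ± 24.8 CPM and ranged from 71.7 CPM in a control library to 156 CPM in a caerulein 100 nM library. Its group means were 120 ± 35.0 CPM with caerulein 100 nM, 105 ± 30.5 CPM with caerulein 100 pM, 116 ± 11.9 CPM with TLC-S 250 uM, 129 ± 20.3 CPM with TLC-S 62.5 uM and 107 ± 32.1 CPM in control (n = 3 each), and all of them overlapped.

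miR-199a-3p, the more abundant arm of miR-199a, was the member whose groups stood apart most often. It was at 487, 576 and 696 CPM with caerulein 100 nM and 637, 626 and 719 CPM with caerulein 100 pM. With TLC-S 250 uM it was at 494, 727 and 804 CPM, with TLC-S 62.5 uM at 773, 881 and 846 CPM, and in control at 735, 812 and 795 CPM. On the TMM scale all 6 caerulein libraries lay below all 3 control libraries, and the TLC-S groups overlapped control. On plain library totals both caerulein groups overlapped control. The TMM factor was 0.735 for control replicate 3, beside 1.118 and 1.186 for the other controls. Control replicate 3 had 1664 counts of 2847458. That share was smaller than 329 of 535473 in caerulein 100 nM replicate 2 and 1111 of 1742563 in caerulein 100 pM replicate 1. With caerulein 100 nM the log2 difference from control was -0.41 (SE 0.23, 95% interval -0.89 to 0.07, unadjusted p = 0.0913, adjusted p = 0.984, edgeR), and with caerulein 100 pM it was -0.24 (SE 0.23, 95% interval -0.72 to 0.24, adjusted p = 0.942, edgeR). Neither passed. Groups failed to overlap for 6.55% of all 351 miRNAs at 100 nM and for 10.3% at 100 pM, and for 1 of the 7 members in each. The 2 comparisons share their control libraries. With TLC-S 250 uM 0 of 7 members failed to overlap control, beside 7.12% of all miRNAs, and with TLC-S 62.5 uM 0 of 7, beside 12.3%. Between the TLC-S doses the count was also 0 of 7, beside 12% of all miRNAs. The TLC-S differences were -0.21 at 250 uM (95% interval -0.69 to 0.27) and 0.09 at 62.5 uM (-0.39 to 0.57).

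The endothelial miR-126a arms were lower beside miR-199a-3p in the caerulein 100 nM group. Their summed level was 3401 to 6247 CPM with caerulein 100 nM and 6721 to 8514 CPM in control, and both of the 2 markers on that list were lower, by -0.71 and -0.90 on the log2 scale without passing the test (adjusted p = 0.984 and 0.424, edgeR). With caerulein 100 pM the sum was 4851 to 8768 CPM and with TLC-S 250 uM 4454 to 7896 CPM. With TLC-S 62.5 uM it was 4182 to 6674 CPM, narrowly below control. There miR-126a-3p overlapped control (highest 6214 CPM, lowest control 6060 CPM) and miR-126a-5p did not (515 and 584 CPM). Groups failed to overlap for 12.3% of all miRNAs in that comparison. The log2 differences were -0.41 for miR-126a-3p and -0.58 for miR-126a-5p (adjusted p = 0.832 and 0.648, edgeR), while miR-199a-3p differed by 0.09 there. Neither marker was at 0 in any group, and the part of endothelial RNA in the level of miR-199a-3p was not tested.

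miR-199a-5p, the other arm, averaged 79.0 ± 18.4 CPM (n = 15). It was at 64.2, 56.0 and 94.7 CPM with caerulein 100 nM, 60.8, 68.9 and 118 CPM with caerulein 100 pM, 64.6, 78.2 and 80.0 CPM with TLC-S 250 uM, 113, 92.5 and 71.0 CPM with TLC-S 62.5 uM, and 70.3, 71.8 and 81.2 CPM in control. All treated groups overlapped control. Its log2 differences from control ran from -0.03 with caerulein 100 nM (95% interval -0.63 to 0.58) to 0.31 with TLC-S 62.5 uM (-0.29 to 0.91).

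miR-214-3p, which in stellate and other fibroblast-like cells is known as a regulator of connective tissue growth factor, was at 26.9, 29.7 and 32.0 CPM with caerulein 100 nM, 24.7, 36.3 and 40.2 CPM with caerulein 100 pM, 28.3, 31.8 and 40.9 CPM with TLC-S 250 uM, 30.4, 35.0 and 24.8 CPM with TLC-S 62.5 uM, and 22.8, 25.1 and 40.1 CPM in control. All groups overlapped, and log2 differences from control lay between 0.02 and 0.21 with an SE of 0.33. The opposite arm, miR-214-5p, was the scarcest member, with 2 to 42 counts per library. It was at 4.41, 3.50 and 7.72 CPM with caerulein 100 nM, 4.59, 12.9 and 5.75 CPM with caerulein 100 pM, 11.0, 5.09 and 15.2 CPM with TLC-S 250 uM, 9.17, 8.84 and 9.65 CPM with TLC-S 62.5 uM, and 7.27, 14.6 and 13.4 CPM in control. The lowest 2 of the 15 libraries were caerulein 100 nM libraries, but the third lay above the lowest control. The log2 difference of caerulein 100 nM from control was -1.03 (SE 0.53, 95% interval -2.13 to 0.07, unadjusted p = 0.0661, adjusted p = 0.984, edgeR), the largest among the 7 members and not past the threshold. The lowest of these rested on 2 counts, with an exact Poisson 95% interval of 0.242 to 7.22 counts that covers counting error only.

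**Figure D1:**
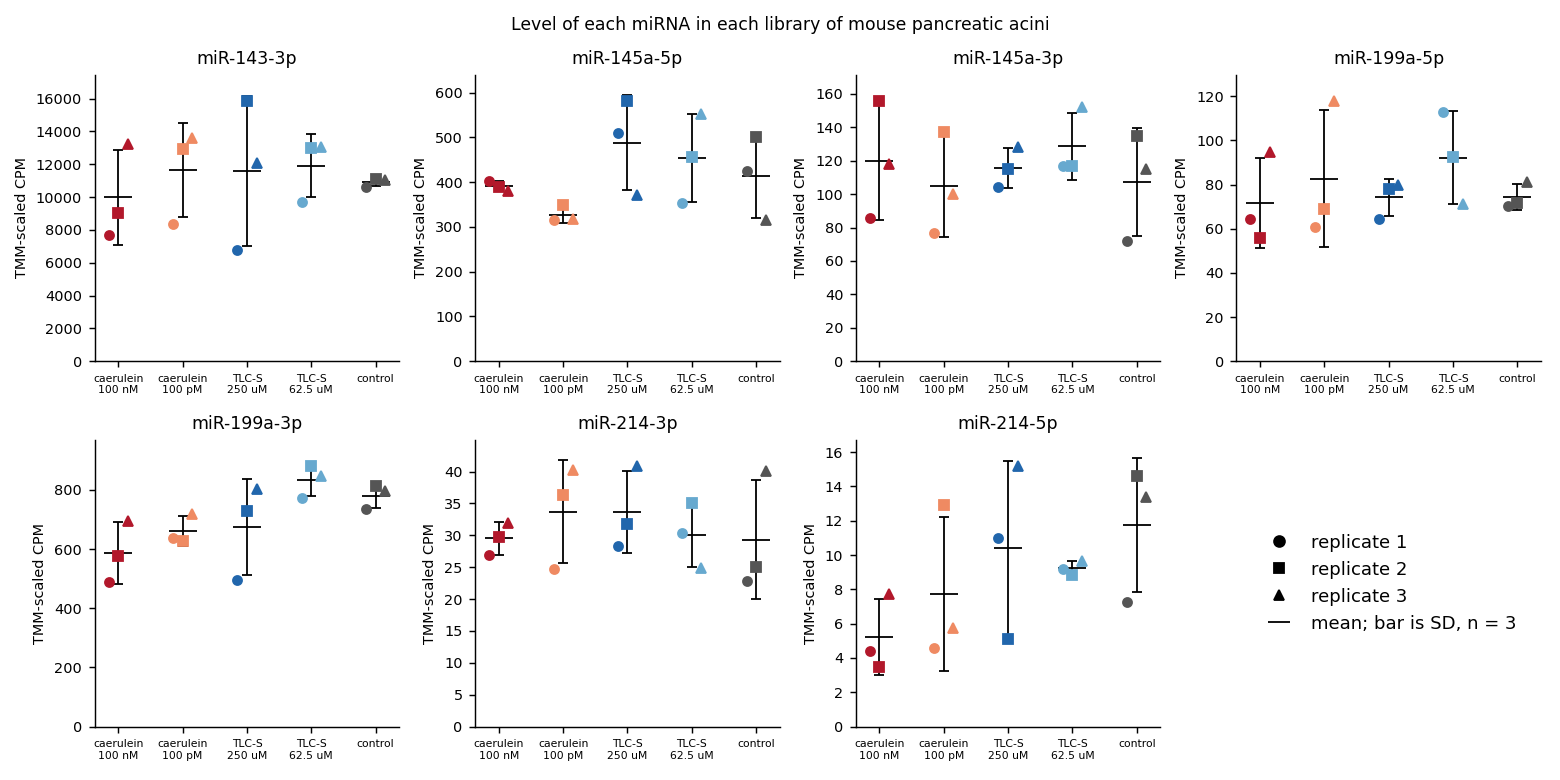
Levels of the 7 miRNAs in each library, in TMM-scaled CPM on axes that start at 0, with 5 groups of 3 libraries and bars for mean and SD. The caerulein libraries of miR-199a-3p (487 to 719 CPM) lie below its control libraries (735 to 812 CPM) on this scale but not on plain library totals. The groups overlap control for the other 6 miRNAs.

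Across the 5 groups 0 of 7 members passed edgeR's quasi-likelihood F test at an adjusted p under 0.05, where 0.855% of all 351 miRNAs passed. The same count of 0 of 7 was found in each comparison. For caerulein 100 nM minus control 0% of all miRNAs passed, for caerulein 100 pM minus control 0%, for TLC-S 250 uM minus control 0% and for TLC-S 62.5 uM minus control 0.57%. Between doses, 0% of all miRNAs passed for caerulein 100 nM minus 100 pM and 1.14% for TLC-S 250 uM minus 62.5 uM, and 0% passed in the test of whether the dose effects of the agents differ. At an unadjusted p under 0.05 the count of members was 0 of 7 in each of these 8 tests, and DESeq2 called 0 of 7 in each. DESeq2 called 0.285% of all miRNAs for caerulein 100 nM minus control, 1.14% for TLC-S 62.5 uM minus control, 1.14% between the TLC-S doses, 1.99% over the 5 groups and 0% in the other 4 tests. The background at an unadjusted p under 0.05 was 3.42% of miRNAs with caerulein 100 nM, 6.84% with caerulein 100 pM, 1.14% with TLC-S 250 uM and 7.41% with TLC-S 62.5 uM, each minus control. It was 1.71% between the caerulein doses, 8.83% between the TLC-S doses, 5.13% in the test of the dose effects and 7.41% in the F test.

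The direction of the 7 differences varied by treatment. With caerulein 100 nM 2 were positive and the median log2 difference was -0.08, beside 185 positive of 351 and a median of 0.03 for all miRNAs. With caerulein 100 pM 3 were positive and the median was -0.03, beside 0.01 for all miRNAs. With TLC-S 250 uM 5 were positive with a median of 0.08, beside -0.03 for all miRNAs, and with TLC-S 62.5 uM 6 were positive with a median of 0.13, beside -0.01. Without TMM, on plain library totals, the median of all miRNAs moved by -0.24 for caerulein 100 pM minus control, more than any of these medians. The intervals bound what could have been missed. For miR-143-3p, the most abundant, the 4 intervals reach from -0.69 to 0.69 in log2, and for miR-214-5p from -2.13 to 0.90.

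**Figure D2:**
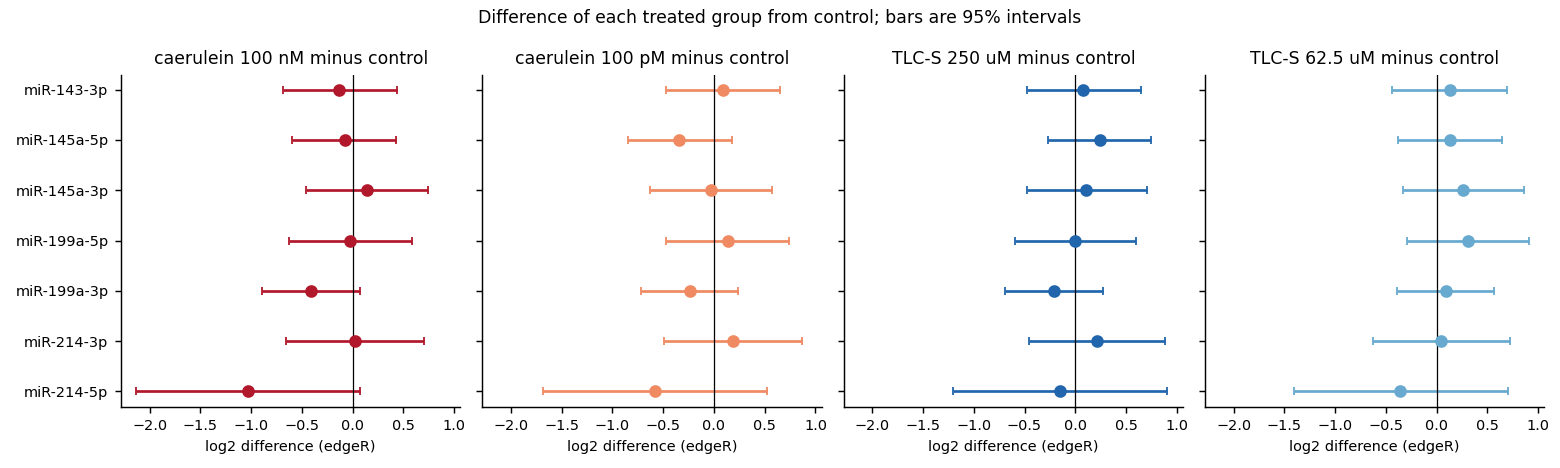
Log2 differences of the 7 miRNAs for each treated group minus control (horizontal axis, edgeR), with 95% intervals. Every interval includes 0, and those of miR-214-5p are the widest, from -2.13 to 0.07 with caerulein 100 nM.

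Apart from miR-214-5p the members varied less than the median miRNA here, some of them by little. The SD of log2 CPM over the 15 libraries was 0.27 for miR-199a-3p, 0.28 for miR-214-3p, 0.29 for miR-145a-5p, 0.31 for miR-199a-5p, 0.33 for miR-145a-3p and 0.34 for miR-143-3p, and 0.68 for miR-214-5p. The median over the 328 tested miRNAs with a count in every library was 0.44. Within groups the SD was 0.39 for miR-143-3p, 0.36 for miR-145a-3p and 0.22 for miR-199a-3p, beside a median of 0.43. These medians were not matched for abundance. The highest library exceeded the lowest 1.80-fold for miR-214-3p, 1.81-fold for miR-199a-3p, 2.34-fold for miR-143-3p and 4.34-fold for miR-214-5p. The order of group means was not shared by the members. TLC-S 62.5 uM had the highest mean of miR-143-3p, miR-145a-3p, miR-199a-5p and miR-199a-3p. Caerulein 100 nM had the lowest mean of miR-143-3p, miR-199a-5p, miR-199a-3p and miR-214-5p. Groups next to each other in these orders overlapped for every member except at the step between the caerulein doses for miR-145a-5p.

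The values for miR-199a-3p depend on how reads were shared among hairpins. The deposited estimated counts of the 3p sequence were divided equally, with 33.3% on Mir199a-1, 33.4% on Mir199a-2 and 33.3% on Mir199b (means of 15 libraries). The value for miR-199a-3p sums 2 hairpins, so it is set at about 2 times that for miR-199b-3p by the division and says nothing of which hairpin was expressed. miR-199b-3p accordingly followed it exactly, at 353 ± 60.4 CPM with a Spearman correlation of 1.0. The 5p arms differ in sequence and carry that information for the 5p side: miR-199b-5p averaged 202 ± 47.2 CPM and made up 71.7% ± 5.11 of the 5p counts of miR-199 (60.5% to 80.0%). The share by group was 74.0% ± 3.55 with caerulein 100 nM, 71.6% ± 4.74 with caerulein 100 pM, 72.1% ± 3.00 with TLC-S 250 uM, 68.8% ± 7.47 with TLC-S 62.5 uM and 71.8% ± 7.82 in control (n = 3 each). More of the 5p RNA was thus counted for Mir199b than for both Mir199a hairpins in every library. With all 3 hairpins pooled, the ratio of 3p to 5p counts was 3.83 ± 0.681 (n = 15).

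**Figure D3:**
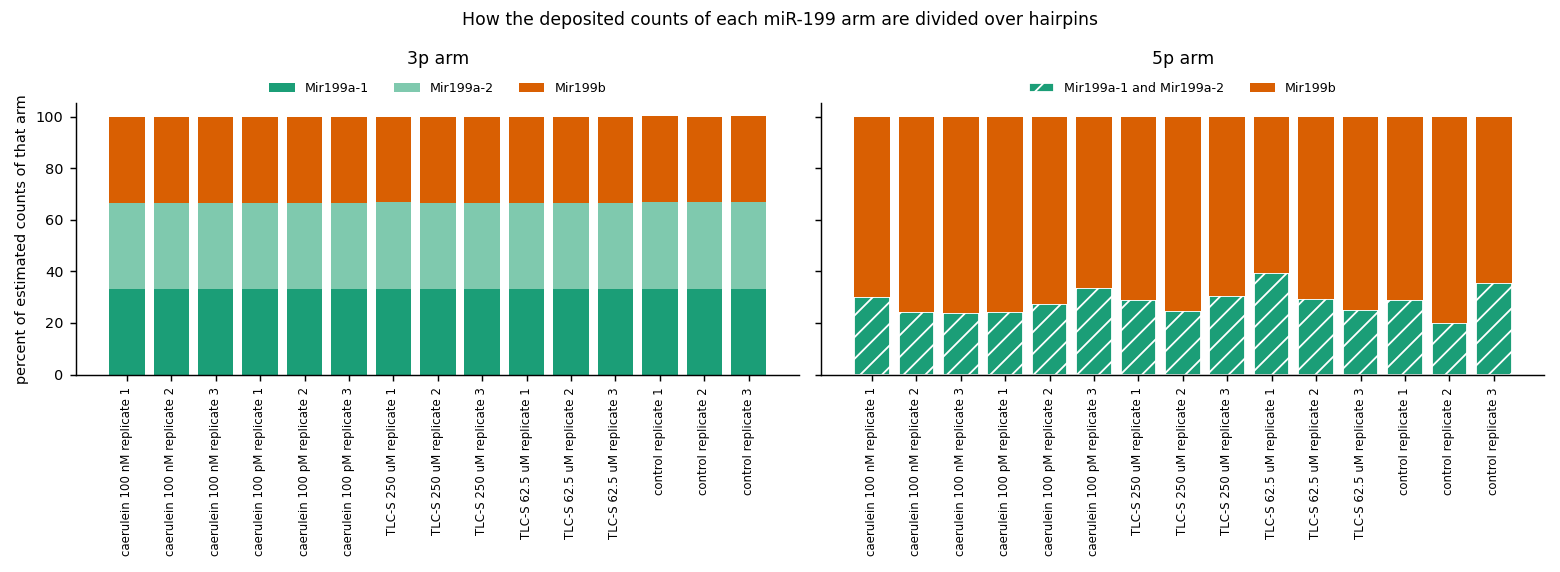
Percent of the deposited estimated counts of each miR-199 arm assigned to each hairpin, one bar per library. The 3p arm is split evenly at about 33.3% per hairpin in all 15 libraries, whereas Mir199b holds 60.5% to 80.0% of the 5p arm.

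Within each library the arms of the hairpins and the miRNAs of each cluster kept unequal amounts. As geometric means over 15 libraries, miR-143-3p counts were 620 times those of miR-143-5p (338 to 1160) and miR-145a-5p counts 3.61 times those of miR-145a-3p (2.50 to 5.90). miR-199a-3p counts were 8.99 times those of miR-199a-5p (6.05 to 11.9), a value that carries the read division described above, and miR-214-3p counts 3.68 times those of miR-214-5p (1.71 to 7.00). Between miRNAs named for a cluster, miR-143-3p exceeded miR-145a-5p 26.8-fold (13.3 to 42.7) and miR-199a-3p exceeded miR-214-3p 22.4-fold (17.1 to 33.6). The second value also carries the read division and includes Mir199a-1, which is outside that cluster. Ligation and amplification can favour some small RNAs, so these ratios compare counts and not molecules. In 24 exact permutation tests of treated groups against control, where the smallest possible p is 0.1 and none could pass, a single ratio reached that value. The ratio of miR-214-3p to miR-214-5p had a mean log2 value of 2.46 with caerulein 100 nM and 1.32 in control, a difference of 1.15 (two-sided exact permutation p = 0.1, adjusted p = 0.6, higher in 3 of 3 libraries). It rested on 9, 2 and 41 counts of miR-214-5p in the caerulein 100 nM libraries. For miR-199a-3p over miR-214-3p the mean was 4.28 with caerulein 100 nM, 4.30 with caerulein 100 pM, 4.30 with TLC-S 250 uM, 4.79 with TLC-S 62.5 uM and 4.77 in control. The lowest exact permutation p among these 4 was 0.2 and its adjusted value 0.6. For miR-199a-3p over miR-199a-5p the mean was 3.05 with caerulein 100 nM, 3.05 with caerulein 100 pM, 3.15 with TLC-S 250 uM, 3.20 with TLC-S 62.5 uM and 3.39 in control, and 0 of its 4 groups failed to overlap control.

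**Figure D4:**
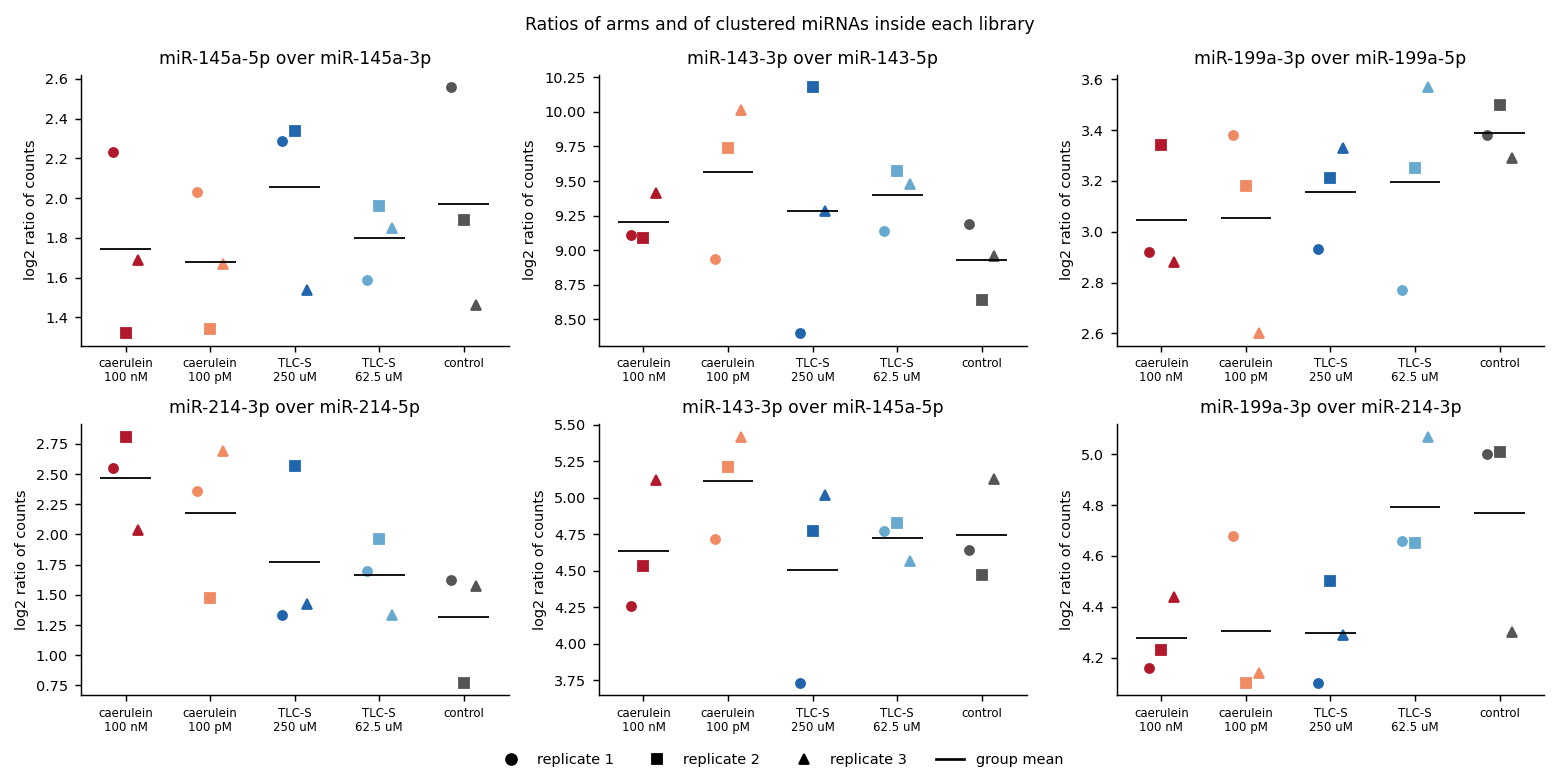
Log2 ratios of counts within each library for 4 pairs of arms and 2 pairs of clustered miRNAs, with lines at group means. The ratio of miR-214-3p to miR-214-5p lies higher in the 3 caerulein 100 nM libraries (2.04 to 2.81) than in the 3 control libraries (0.77 to 1.62). Those caerulein 100 nM libraries held 9, 2 and 41 counts of miR-214-5p.

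miR-143-3p and its cluster mate miR-145a-5p did not track each other closely, nor did the values named miR-199a-3p and miR-214-3p. Over the 15 libraries miR-143-3p and miR-145a-5p had a Pearson r of 0.14 (permutation p = 0.617) and a Spearman rho of 0.15 (permutation p = 0.592). Without the 2 libraries farthest from the median of miR-143-3p, r was 0.47. For miR-199a-3p and miR-214-3p r was 0.22 (permutation p = 0.432) and rho 0.132 (permutation p = 0.638). Without the 2 libraries farthest from the median of miR-199a-3p, r was 0.08. That pair does not test the cluster alone. The value for miR-199a-3p includes Mir199a-1, on another chromosome, and reads divided with Mir199b. The strongest of 5 pairs examined joined the leading members of the 2 clusters: miR-143-3p and miR-199a-3p had an r of 0.71 (permutation p = 0.00355, adjusted p = 0.0177) and a rho of 0.475 (permutation p = 0.077, adjusted p = 0.385). That relation rests on replicate 1 of TLC-S 250 uM and replicate 1 of caerulein 100 nM, and without them r was 0.37. With the mean of each group taken off r was 0.83, and with the mean of each replicate number taken off it was 0.57. Each replicate number has 5 libraries, too few for a correlation within it. The permutations treated all 15 libraries as exchangeable, although they fall into groups and replicate numbers and share their scaling. The p-values of the correlations do not allow for this. With the endothelial miR-126a-3p and the acinar miR-148a-3p, miR-143-3p had r values of 0.24 and 0.13 (adjusted permutation p = 0.633 each).

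**Figure D5:**
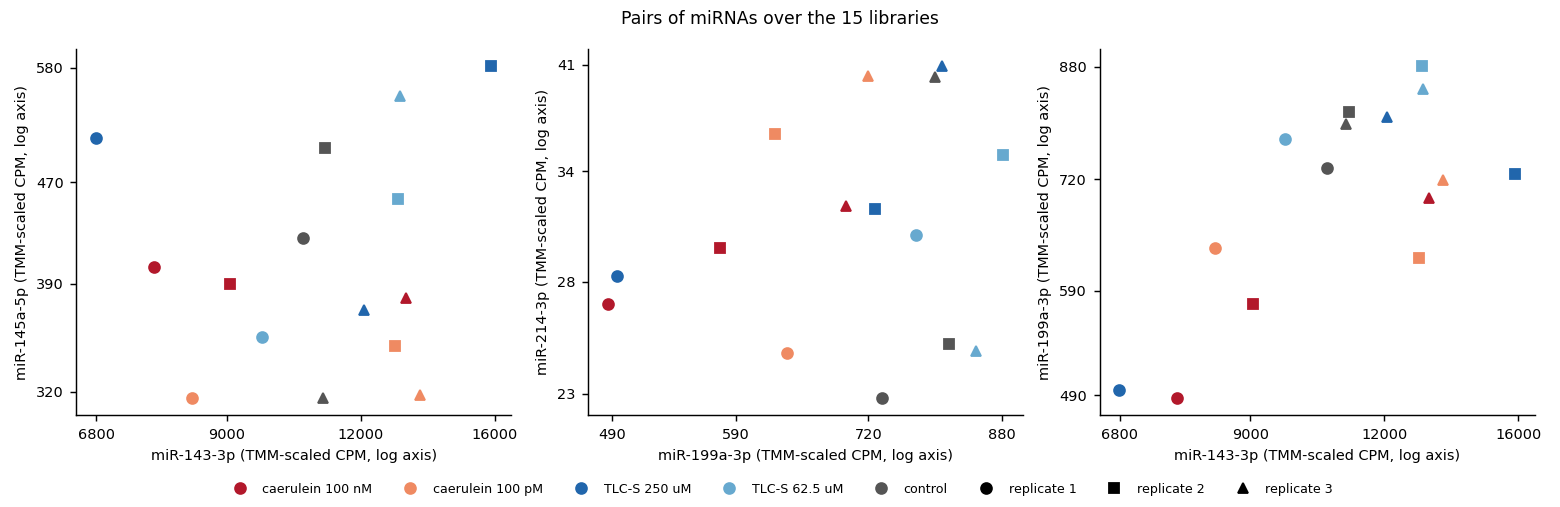
Levels of 3 pairs of miRNAs in the 15 libraries (TMM-scaled CPM, log axes), with colour for group and shape for replicate number. miR-143-3p and miR-199a-3p (r = 0.71) are drawn out by the 2 libraries at the lower left, while the other pairs (r = 0.14 and 0.22) are scattered.

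The miRNAs most like miR-143-3p in their order over the 15 libraries were miR-134-5p (Spearman rho 0.84), miR-7b-5p (0.81), miR-379-5p (0.81), miR-127-5p (0.81) and miR-136-3p (0.80). Of these, miR-134, miR-379, miR-127 and miR-136 belong to the imprinted Dlk1 domain. The cluster mate miR-145a-5p reached 0.15 by the same measure and miR-199a-5p 0.63. For miR-199a-3p, apart from miR-199b-3p, the closest were miR-351-5p (0.75), miR-541-5p (0.70), miR-136-3p (0.69) and miR-433-3p (0.66). Of these, miR-351-5p averaged 4.82 CPM and miR-433-3p 2.08 CPM, within the 0.59 to 5.6 CPM that 3 counts correspond to. Their order over the libraries is thus open to counting error. The closest miRNAs were picked as the highest correlations among all tested miRNAs outside the members, which favours high values. They are therefore not on a par with the values of miR-145a-5p and miR-199a-5p, which were named beforehand. No test was made, and the values only describe 15 libraries that share their scaling.

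Other miRNAs named for mesenchymal cells gave a background for the members. Of 11 further fibroblast, pericyte and smooth muscle miRNAs 10 were tested, and 0 were called in any of the 8 tests. Their most abundant were miR-152-3p at 12689 ± 2160 CPM, miR-10b-5p at 4120 ± 746 CPM and miR-140-3p at 1162 ± 218 CPM (n = 15 each). With TLC-S 62.5 uM 9 of 10 had positive log2 differences from control with a median of 0.35, beside 171 of 351 and -0.01 for all miRNAs. With TLC-S 250 uM minus 62.5 uM 9 of 10 were negative with a median of -0.52, beside 170 of 351 and 0.01. The list was chosen with earlier results of these data known, and its miRNAs were read in the same libraries and are not independent. The counts of direction were therefore not tested and only describe the list. These comparisons share the TLC-S 62.5 uM libraries, and the members' own median between the TLC-S doses was -0.04 with 4 of 7 negative. Of 9 miRNAs linked to stellate cell activation and fibrosis, led by miR-21a-5p at 19080 ± 4570 CPM, miR-29a-3p at 8296 ± 1000 CPM and miR-29c-3p at 1034 ± 237 CPM, 0 were called in any test. Their median log2 differences from control were 0.03 with caerulein 100 nM, -0.18 with caerulein 100 pM, 0.09 with TLC-S 250 uM and 0.10 with TLC-S 62.5 uM. miR-143-5p, the other arm of the miR-143 hairpin, was scarce at 17.6 ± 3.80 CPM (n = 15). miR-145b, which has its own precursor, was at 1.03 ± 0.682 CPM (n = 15).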

How the data were processed

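Small RNA libraries were sequenced from 15 samples in 5 groups, taken from the sample titles. The submitters' processing notes name cutadapt, Bowtie and the builds GRCm38 and mm10, and neither tool versions nor a counting program were found in the sources read. The authors deposited estimated (expected) counts per mature miRNA as whole numbers, each within 0.5 of the sum of their fractional estimated counts per precursor. Of the precursor values above 0, 74.0% were whole within 1e-06. The authors also deposited RPM per precursor, which matched these counts, scaled, within 0.0313 and served only as a check.

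The 15 libraries were fitted together, with a mean per group, by edgeR 4.0.16 under R 4.3.3. Library sizes were TMM-scaled and miRNAs filtered by filterByExpr (minimum count 10, minimum total 15), which left 351 of 867 miRNAs with a count and 10 residual degrees of freedom. Quasi-likelihood p-values received a Benjamini-Hochberg adjustment over all miRNAs tested, at a threshold of 0.05. The biological coefficient of variation was 0.285, and the 95% interval of a log2 difference had a median half-width of 0.729. Count intervals include counting error alone, as there were no molecular tags. Ratios were log2 of counts plus 0.5, tested by exact permutation, and correlations were tested with 100000 permutations of log2 CPM (scipy 1.17.1). Replicate numbers followed the 3 runs of sample codes in the labels. In 1 of 10 group pairs every same-numbered pair of libraries had a correlation of deviations above 0.1. By that rule the numbers were not taken as pairs in the main fit. In 17 of 30 same-numbered pairings, however, the own number gave the best correlation. The main fit may thus leave variation shared by a replicate number in its spread, and a replicate block was fitted as an alternative. Alternatives were other scalings and filters, DESeq2 1.42.0, limma 3.58.1, the highest precursor value, only the groups compared, a replicate block and leaving out libraries. The model was tested on simulated data. Positions are from GENCODE M21 and sequences from RefSeq. The named miRNAs were the 7 members, the other products of their hairpins or of copies, the 3 most abundant of each list, any that passed and the 5 closest in Spearman correlation to miR-143-3p and miR-199a-3p. The members and lists were chosen with earlier results of these data known. Figures were drawn with matplotlib 3.10.9 in Python 3.11.15.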

Additional observations from a re-analysis of the deposited data

How the results depend on the processing

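In 246 refits over 31 alternative settings 0 of 7 members were called, and the lowest adjusted p of a member was 0.608 (each setting fitted with edgeR, DESeq2 or limma). The ratio tests could not pass at this number of libraries, so their alternatives say nothing of stability. Of 1504 recomputed differences, 97 changed sign and 36 moved by at least 1 SE, and the largest difference that changed sign was 0.66 in size. Against control, miR-199a-3p kept its sign in every alternative for both caerulein doses and for TLC-S 62.5 uM, and so did miR-214-5p. For all values below the cause was not tested. Leaving out single libraries gave log2 differences that crossed 0 in these ranges. For caerulein 100 nM minus control they were miR-143-3p -0.38 to 0.05, miR-145a-5p -0.23 to 0.10, miR-145a-3p -0.08 to 0.37, miR-199a-5p -0.30 to 0.09 and miR-214-3p -0.11 to 0.32. For caerulein 100 pM minus control they were miR-143-3p -0.05 to 0.32, miR-145a-3p -0.34 to 0.20 and miR-199a-5p -0.18 to 0.36. For TLC-S 250 uM minus control they were miR-143-3p -0.16 to 0.41, miR-145a-3p -0.06 to 0.35, miR-199a-5p -0.07 to 0.15, miR-199a-3p -0.36 to 0.03 and miR-214-5p -0.60 to 0.21. For TLC-S 62.5 uM minus control they were miR-145a-5p -0.08 to 0.30 and miR-214-3p -0.09 to 0.35. For caerulein 100 nM minus 100 pM they were miR-145a-3p -0.03 to 0.49, miR-199a-5p -0.41 to 0.17, miR-199a-3p -0.29 to 0.00 and miR-214-5p -0.93 to 0.25. For TLC-S 250 uM minus 62.5 uM they were miR-143-3p -0.32 to 0.28, miR-145a-5p -0.06 to 0.32, miR-145a-3p -0.25 to 0.04, miR-214-3p -0.01 to 0.34 and miR-214-5p -0.23 to 0.54. For the difference of the dose effects they were miR-143-3p -0.46 to 0.10, miR-145a-5p -0.03 to 0.34, miR-199a-5p -0.14 to 0.47, miR-199a-3p -0.07 to 0.32 and miR-214-5p -1.17 to 0.01. Leaving out one replicate number in every group was added after the data were seen. Without replicate 1 the sign changed for caerulein 100 nM minus control (miR-143-3p 0.02, miR-199a-5p 0.04, miR-214-3p -0.05), TLC-S 62.5 uM minus control (miR-214-3p -0.11), between the TLC-S doses (miR-143-3p 0.16, miR-145a-5p -0.02, miR-199a-5p 0.02) and for the dose effects (miR-199a-5p -0.28). Without replicate 2 it changed for caerulein 100 nM minus control (miR-145a-5p 0.06, miR-199a-5p 0.05, miR-214-3p -0.11), caerulein 100 pM minus control (miR-143-3p -0.02, miR-214-3p -0.02), TLC-S 250 uM minus control (miR-143-3p -0.19, miR-199a-5p -0.06, miR-214-5p 0.36) and TLC-S 62.5 uM minus control (miR-214-3p -0.17). It also changed there between the caerulein doses (miR-214-5p 0.33), between the TLC-S doses (miR-145a-5p -0.09) and for the dose effects (miR-143-3p 0.24). Without replicate 3 it changed for caerulein 100 pM minus control (miR-143-3p -0.06, miR-145a-3p 0.01, miR-199a-5p -0.17), TLC-S 62.5 uM minus control (miR-145a-5p -0.24), between the TLC-S doses (miR-143-3p 0.09, miR-214-3p -0.04, miR-214-5p -0.11) and for the dose effects (miR-145a-5p -0.22). Library totals in place of TMM shifted the median of all miRNAs by -0.24 for caerulein 100 pM minus control and 0.29 between the caerulein doses. Shifts under the other scalings were below 0.1. With library totals the values that changed sign were miR-199a-5p 0.04 for caerulein 100 nM minus control and miR-143-3p -0.19, miR-199a-5p -0.11 and miR-214-3p -0.01 for caerulein 100 pM minus control. Between the caerulein doses they were miR-143-3p 0.12, miR-199a-5p 0.15, miR-199a-3p 0.13 and miR-214-3p 0.15, and for the dose effects miR-143-3p 0.23 and miR-214-3p 0.07. The remaining changes of sign lay close to 0. For miR-214-3p with caerulein 100 nM minus control they were 0.00 with DESeq2 and without the 3 most abundant miRNAs, -0.01 with RLE size factors and -0.02 with a mean CPM of at least 10. Without the 3 most abundant miRNAs miR-214-3p was also at 0.00 for TLC-S 62.5 uM minus control and miR-143-3p at 0.04 between the TLC-S doses. For miR-199a-5p they were 0.00 with upper quartile scaling for caerulein 100 nM minus control, and for TLC-S 250 uM minus control -0.01 with limma at either pseudocount (1 or 10) and 0.00 with the replicate block. With the mean of each replicate number taken off, r was -0.16 for miR-199a-3p with miR-214-3p and -0.16 for miR-143-3p with miR-148a-3p. The replicate block called 0 of 7 members in each test, and in 17 of 30 same-numbered pairings of libraries from different groups the own number gave the best correlation. Counts over all miRNAs depended more on the setting. TLC-S 62.5 uM minus control had 2 calls, 4 with DESeq2, 5 without a filter, 5 with the block, 1 with library totals, 0 with only the groups compared and 1 to 3 without single libraries. The F test had 3 calls, 7 with DESeq2, 10 without a filter, 6 with the block and 1 with a mean CPM of at least 10. TLC-S 250 uM minus 62.5 uM had 4, and 1 to 4 without single libraries. Depth limits miR-214-5p most, with 2 to 42 counts per library.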

Other observations

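Levels of several members went with the replicate number. Over the 5 groups miR-143-3p averaged 8627 ± 1530 CPM in the libraries numbered 1, 12395 ± 2530 CPM in those numbered 2 and 12604 ± 1030 CPM in those numbered 3 (SD, n = 5 each). miR-199a-3p averaged 625 ± 132, 724 ± 127 and 772 ± 62.2 CPM in the same 3 sets, and its lowest library of a group was numbered 1 in 4 of 5 groups. miR-145a-5p averaged 401 ± 74.1, 455 ± 92.2 and 388 ± 95.8 CPM, and was lowest in the libraries numbered 1 in 2 of 5 groups. The labels do not say what the numbers stand for, and no cause was tested.

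Markers of other cell types were present at very different levels. Summed over each list, acinar miRNAs ranged over the 15 libraries from 238378 to 787353 CPM, islet miRNAs (miR-375-3p and miR-7a-5p) from 79058 to 141829 CPM and the epithelial miR-200 family from 73895 to 115529 CPM. Endothelial miRNAs ranged from 3401 to 8768 CPM, leukocyte miRNAs from 39.2 to 108 CPM, erythrocyte miRNAs from 57.9 to 151 CPM and striated muscle miRNAs from 16.7 to 54.7 CPM. In edgeR 0 miRNAs of these 7 lists were called in any of the 8 tests.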
